A study of Mus musculus with 8 samples.

Results

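The 9 genes described here encode components and regulators of the complement system, and they are 9 of the 31053 genes listed in the deposited counts of isolated mouse retinal pigment epithelium (RPE). They were chosen by name, as complement genes, with earlier results of these data known. C4b, C3, C1ra, C1s1 and Cfb encode components, and Cfi, Serping1, Cd59a and Cd55 encode regulators. All 9 were listed, and 6 of them had enough counts to be tested. The comparison was between 4 libraries of Bbs8-/- and 4 libraries of Bbs8+/+ RPE at postnatal day 29 (P29), both from C57/Bl6 mice without treatment, the controls being wild-type littermates. Bbs8, also named Ttc8, encodes a subunit of the BBSome, a protein complex that moves cargo through cilia. The knockout is present in the whole body, so that photoreceptors next to the RPE lack Bbs8 as well. RPE sheets were peeled from the choroid after removal of cornea, lens and neural retina and a trypsin step, and RNA was sequenced from transcript 3′ ends with the QuantSeq protocol.

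Complement is a cascade of plasma and tissue proteins that marks surfaces for removal and can form pores in membranes. The classical route starts with C1q and its proteases C1r and C1s, which cleave C4 and C2, and it meets the lectin and alternative routes at C3. Soluble and membrane-bound regulators limit each step, and in the eye the RPE and the retinal glia are known sources of complement proteins. C4 and C3 belong to the same family as alpha-2-macroglobulin, and an internal thioester bond in these proteins lets the cleaved protein bind covalently to its target.

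The coding stretches around the thioester are shown for C4b, the gene with the largest change here, for C3, which had too few counts to be tested, and for A2m, the alpha-2-macroglobulin gene, which is one of the genes whose levels followed C4b most closely. Each stretch is 57 bases of the coding strand on GRCm38 and lies within 1 exon, and the capitals mark the 15 bases of the thioester codons. The C4b stretch is at chr17:34734460-34734516 on the minus strand, the C3 stretch at chr17:57215823-57215879 on the minus strand and the A2m stretch at chr6:121668081-121668137 on the plus strand.
C4b: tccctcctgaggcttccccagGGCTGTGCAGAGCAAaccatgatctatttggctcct
C3: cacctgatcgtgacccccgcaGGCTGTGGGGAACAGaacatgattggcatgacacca
A2m: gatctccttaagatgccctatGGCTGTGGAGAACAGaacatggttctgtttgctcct
Of the 57 aligned bases, C4b shared 38 (66.7%) with A2m and 31 (54.4%) with C3, and C3 shared 35 (61.4%) with A2m. Within the thioester codons, 12 of the 15 bases were the same in C4b and A2m, and 11 were the same in C4b and C3. The thioester codons are codons 1005 to 1009 of the 1738 codons of C4b and codons 1009 to 1013 of the 1663 codons of C3.

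The libraries held 2389835 to 3093428 counts assigned to genes, and levels are given as CPM (counts scaled to library size) after adjustment by the trimmed mean of M-values (TMM). A floor of 3 counts per library corresponded to 0.970 to 1.26 CPM and covers counting error only. Ttc8, the targeted gene, had 105 to 144 counts in the Bbs8+/+ libraries and 5 to 15 in the Bbs8-/- libraries, in keeping with the labels. With 12889 genes tested by edgeR's quasi-likelihood test at an adjusted p below 0.05, 704 rose and 877 fell in the knockout, and the median log2 fold change was 0.02. With scaling by library size alone these counts were 1008 and 654, and the median of all genes moved up by 0.0891 on the log2 scale. All 13 RPE markers examined were tested in these libraries, but markers of other eye cells were present too, and photoreceptor markers together reached 55169 to 59637 CPM in Bbs8+/+ libraries and 22757 to 23331 CPM in Bbs8-/- libraries. Each library held RNA of Xist, at 111 to 598 counts, together with 264 to 490 counts of 4 Y-linked genes, so that each held RNA of both sexes although each animal was described as a replicate. Xist was higher in all Bbs8-/- libraries (log2 fold change 1.78, adjusted p = 2.24e-13), the Y-linked genes Ddx3y, Uty, Kdm5d and Eif2s3y did not pass the threshold, and the part of sex composition in the results below was not tested. The share of reads that fell on no gene was 17.0% to 18.4% in Bbs8+/+ and 19.8% to 20.6% in Bbs8-/- libraries, and the TMM factors were 0.955 to 0.980 and 1.02 to 1.05, so both separated the genotypes, and their part in the results was not tested.

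Of the 6 tested complement genes, C4b and Cfi rose in Bbs8-/- RPE and Serping1 fell. Among all tested genes 5.46% rose and 6.8% fell, or 12.3% in either direction. The C1r gene C1ra was about 2.05-fold higher without passing the threshold, C1s1 and Cd59a overlapped between the genotypes, and C3, Cfb and Cd55 were too low to be tested. In 4 of the 6 tested genes the 4 Bbs8-/- libraries lay entirely above or entirely below the 4 Bbs8+/+ libraries, which was so for 16.1% of all tested genes. Cfi is among these and among the genes that rose, but it had enough counts to be tested only through its Bbs8-/- libraries. Its separation was therefore largely fixed in advance, and these counts are given as a description. In RNA from a whole tissue, fewer cells of a type and less RNA per cell cannot be told apart, and this holds for every difference below.

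**Figure D1:**
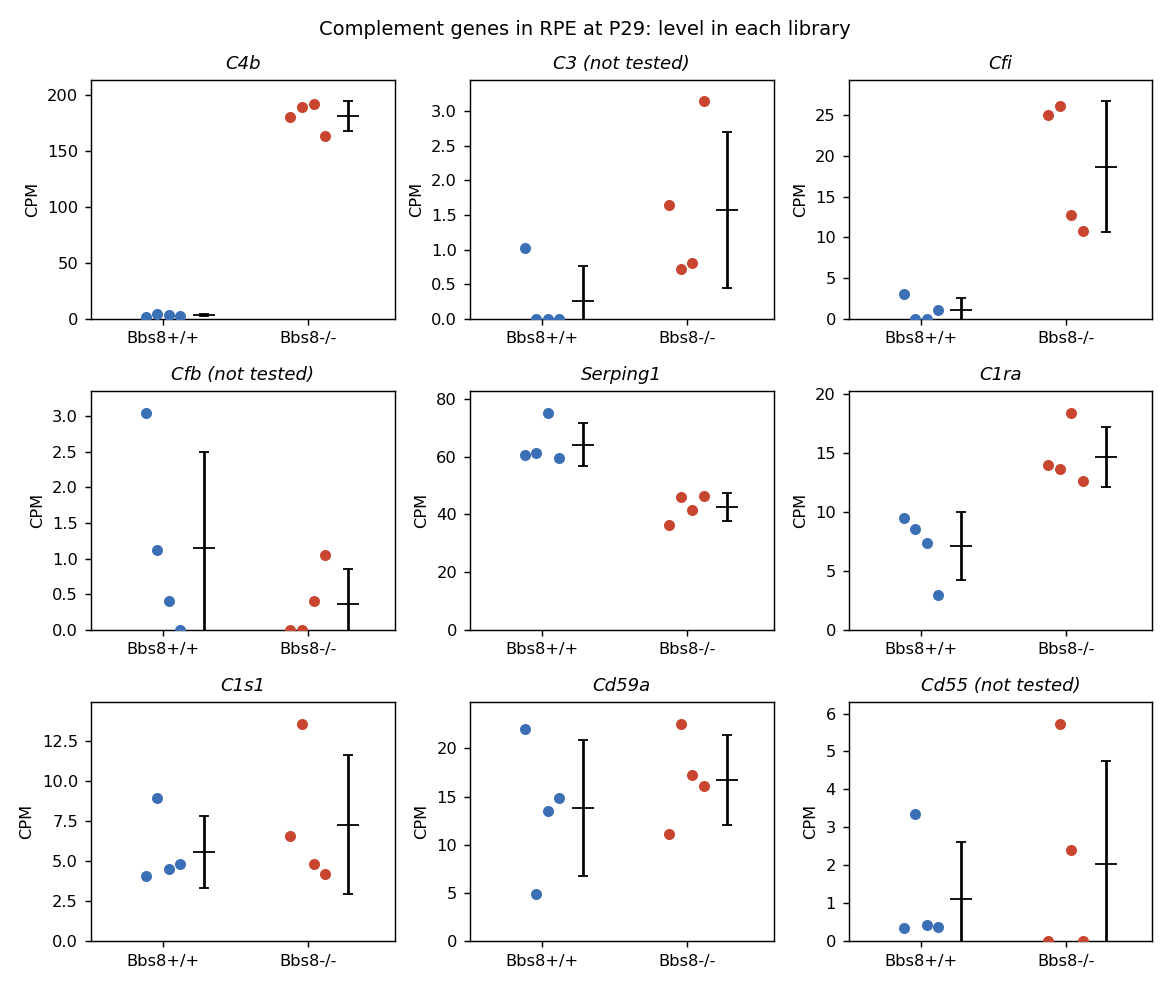
CPM of the 9 complement genes in each of the 4 Bbs8+/+ (blue) and 4 Bbs8-/- (red) libraries at P29, each panel with its own axis from 0; bars give mean ± SD (n = 4), cut at 0. C4b, Cfi and C1ra are higher and Serping1 is lower in every Bbs8-/- library than in any Bbs8+/+ library, while C3, Cfb and Cd55 reach at most 3.14, 3.05 and 5.73 CPM in any library.

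C4b encodes complement C4, the substrate of C1s, whose larger fragment attaches to surfaces and becomes part of the C3-cleaving enzyme of the classical and lectin routes. The gene (ENSMUSG00000073418) lies at chr17:34728380-34743882 on the minus strand, in the class III region of the major histocompatibility complex. Its level was 1.69, 4.10, 3.68 and 2.60 CPM in the Bbs8+/+ libraries, and 181, 189, 192 and 164 CPM in the Bbs8-/- libraries. The genotypes were far apart, and the lowest Bbs8-/- library had 440 counts where the highest Bbs8+/+ library had 11. The mean rose from 3.02 ± 1.09 to 182 ± 13.0 CPM (SD, n = 4), a 60.0-fold difference (log2 fold change 5.91, SE 0.201, 95% interval 5.50 to 6.31, adjusted p = 1.46e-23 in edgeR's quasi-likelihood test). An exact two-sided permutation test of CPM gave p = 0.0286, the smallest p that 4 libraries against 4 allow. The Bbs8+/+ level rested on 32 counts in all. Of the 401 stretches of 100 bases, the read length, in the last 500 bases of the C4b transcript, 63 (15.7%) also occur in its neighbour C4a, and reads from these stretches do not map uniquely. C4a was not analysed here.

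Cfi encodes factor I, a soluble protease that inactivates the active fragments of C3 and C4 together with a cofactor. Cfi (ENSMUSG00000058952, chr3:129835884-129875332, plus strand) was at 3.05, 0, 0 and 1.12 CPM in the Bbs8+/+ libraries, and at 25.0, 26.1, 12.8 and 10.8 CPM in the Bbs8-/- libraries. The groups did not overlap, although the Bbs8-/- libraries themselves fell into a higher and a lower pair. Only the Bbs8-/- libraries, with 31 to 73 counts, carried the gene past the filter on low counts, because the Bbs8+/+ libraries had 9, 0, 0 and 3 counts, so that its testing itself depended on the Bbs8-/- level. The mean was 1.04 ± 1.44 against 18.7 ± 8.01 CPM (SD, n = 4), and the log2 fold change was 4.04 (SE 0.565, 95% interval 2.89 to 5.18, adjusted p = 1.11e-06 in edgeR's quasi-likelihood test; exact permutation p = 0.0286). Without Bbs8+/+ library 1, which held 9 of the 12 Bbs8+/+ counts, the log2 fold change was 5.44, so its size depended on this library while its direction did not. None of the 401 read-length stretches at the Cfi transcript end was found in another gene.

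Serping1 encodes C1 inhibitor, which binds and blocks C1r and C1s as well as proteases of the contact system. Serping1 (ENSMUSG00000023224, chr2:84765387-84775444, minus strand) was the complement regulator among the 9 genes that fell, from 60.6, 61.2, 75.2 and 59.5 CPM in the Bbs8+/+ libraries to 36.1, 45.8, 41.6 and 46.5 CPM in the Bbs8-/- libraries. Every Bbs8-/- library was below every Bbs8+/+ library. The mean was 64.1 ± 7.44 against 42.5 ± 4.78 CPM (SD, n = 4), and the log2 fold change was -0.59 (SE 0.165, 95% interval -0.92 to -0.25, adjusted p = 0.0130 in edgeR's quasi-likelihood test; exact permutation p = 0.0286). Bbs8+/+ library 3 stood above the others, and without it the log2 fold change was -0.51 with an adjusted p = 0.0691, no longer past the threshold.

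C1ra and C1s1 encode the proteases C1r and C1s of the first complement complex, in which C1r activates C1s and C1s cleaves C4 and C2. C1ra (ENSMUSG00000055172, chr6:124512405-124523443, plus strand) was at 9.48, 8.58, 7.36 and 2.97 CPM in the Bbs8+/+ libraries and at 14.0, 13.6, 18.4 and 12.6 CPM in the Bbs8-/- libraries. The genotypes did not overlap, and Bbs8+/+ library 4 was the lowest of all. The log2 fold change was 1.03 (SE 0.367, 95% interval 0.29 to 1.78), with an adjusted p = 0.0592 in edgeR's quasi-likelihood test, just short of the threshold, and an exact permutation p = 0.0286. C1ra passed the threshold in 4 of 16 alternatives and stayed short of it in the other 12. It passed with library size scaling (1.12, adjusted p = 0.0363) and in edgeR's likelihood ratio test (1.03, adjusted p = 0.0388). It also passed in DESeq2 (1.04, adjusted p = 0.0474) and without Bbs8+/+ library 1 (1.21, adjusted p = 0.0380). Without Bbs8+/+ library 4 the log2 fold change of C1ra was 0.78 (adjusted p = 0.217 in the quasi-likelihood test). Of its 401 read-length stretches 36 (8.98%) also occur in the paralog C1rb, which had 0 counts in every library.

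The promoter of C1ra is printed because C1ra was the only member with both a RefSeq promoter entry and libraries that did not overlap. It is the RefSeq window on GRCm38.p6 at chr6:124512371-124512670, plus strand, with 250 bases before and 50 bases from the annotated start site, and the capitals mark 2 motif matches. The gene model given above starts at 124512405, inside this window and before that start site. Motif positions in C1ra are therefore counted from the RefSeq start site only.
C1ra: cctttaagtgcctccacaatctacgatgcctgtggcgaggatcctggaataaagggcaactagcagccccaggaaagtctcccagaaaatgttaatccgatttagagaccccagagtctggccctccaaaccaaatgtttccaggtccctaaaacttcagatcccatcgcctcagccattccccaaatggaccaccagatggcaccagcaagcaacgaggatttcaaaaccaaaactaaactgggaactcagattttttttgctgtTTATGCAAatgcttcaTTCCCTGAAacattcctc
RefSeq promoter entries were matched for 5 of the 9 genes, and not for C4b, Cfi, Cfb and Serping1. Both strands were searched for TTCNNNGAA, the spacing bound by STAT factors, for TTGCNNAA, a spacing bound by C/EBP factors, for GAAA followed after 2 bases of any kind by GAAA, an interferon response spacing, and for the kappaB consensus by name. The C1ra window held TTATGCAA, a match to the C/EBP motif on the opposite strand, 16 bases after the start site, and TTCCCTGAA, a match to the STAT motif, 32 bases after it, without overlap. Among 32851 promoter windows of the same length, 8.3% held the STAT motif and 10.8% the C/EBP motif. The C/EBP motif also occurred in the windows of C3, as TTGCGAAA 45 bases before the start site, and in 1 of the 2 windows of C1s1. The interferon response spacing, held by 3.44% of all windows, occurred in the Cd59a window, and no match was found in the Cd55 window. The kappaB consensus, held by 4.51% of all windows, was found in none of the 5. A match is a description of these letters and shows no binding.

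C1s1 (ENSMUSG00000038521, chr6:124530345-124542359, minus strand) had 12, 24, 11 and 13 counts in the Bbs8+/+ libraries and 16, 38, 12 and 12 counts in the Bbs8-/- libraries. The ranges overlapped, and library 2 was the highest of each genotype. The log2 fold change was 0.39 with a 95% interval of -0.60 to 1.37 (adjusted p = 0.707 in edgeR's quasi-likelihood test), an interval that includes no difference as well as a doubling of the level. The estimate turned to -0.11 without Bbs8-/- library 2 (adjusted p = 0.941).

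Cd59a encodes a membrane-anchored protein that blocks the last step of pore formation. Cd59a (ENSMUSG00000032679, chr2:104095801-104115354, plus strand) had 65, 13, 33 and 40 counts in the Bbs8+/+ libraries and 27, 63, 43 and 46 counts in the Bbs8-/- libraries. Scaled to library size, the lowest value was 4.85 CPM in Bbs8+/+ library 2. The highest were 22.0 CPM in Bbs8+/+ library 1 and 22.6 CPM in Bbs8-/- library 2, and the genotypes overlapped. The log2 fold change was 0.27 with a 95% interval of -0.41 to 0.96 (adjusted p = 0.698 in edgeR's quasi-likelihood test), and it was -0.00467 without Bbs8+/+ library 2 (adjusted p = 0.997).

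The remaining 3 members did not have at least 1 CPM in at least 4 libraries and were not tested with the others. C3, which encodes the central component on which all routes converge, lies at chr17:57203970-57228136 on the minus strand (ENSMUSG00000024164) and had 3, 0, 0 and 0 counts in the Bbs8+/+ libraries and 4, 2, 2 and 9 counts in the Bbs8-/- libraries. These were 20 counts over 8 libraries, and with no filter on low counts the log2 fold change was 2.38 (adjusted p = 0.396 in edgeR's quasi-likelihood test). Whether C3 differed was therefore not resolved by these few counts, and its level was at most 3.14 CPM in any library. Cfb encodes factor B, the protease of the alternative route, and lies at chr17:34856374-34862518 on the minus strand (ENSMUSG00000090231). It had 9, 3, 1 and 0 counts in the Bbs8+/+ libraries and 0, 0, 1 and 3 counts in the Bbs8-/- libraries. These counts may understate its level, since 373 (93.0%) of its 401 read-length stretches also occur in the overlapping gene model Gm20547, which shares 472 (94.4%) of the last 500 bases of Cfb on the same strand and had 0 counts in every library. Cd55 encodes decay-accelerating factor, which takes apart the C3-cleaving enzymes on the cell surface, and lies at chr1:130439027-130462744 on the minus strand (ENSMUSG00000026399). It had 1, 9, 1 and 1 counts in the Bbs8+/+ libraries and 0, 16, 6 and 0 counts in the Bbs8-/- libraries, and the spread within each genotype was larger than the difference between them. Without the filter the log2 fold changes of Cfb and Cd55 were -1.54 (adjusted p = 0.610) and 0.84 (adjusted p = 0.710).

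The other genes of the cascade were taken from a list of 52 complement genes, of which 51 were listed in the counts and 22 were tested. Of these 22 genes 1 rose and 1 fell, where 5.46% of all tested genes rose and 6.8% fell. The median log2 fold change of the list was 0.01, against 0.71 for the 6 tested members and 0.02 for all tested genes. The members were chosen with earlier results of these data known, and Cfi was tested only because of its Bbs8-/- level. The higher median of the members is therefore a description only. Both called genes of the list are soluble regulators known to bind the terminal complex. Clu, which encodes the secreted chaperone clusterin, was at 4921, 4629, 4292 and 4661 CPM in the Bbs8+/+ libraries and at 6436, 6460, 6787 and 6436 CPM in the Bbs8-/- libraries, with no overlap (log2 fold change 0.50, SE 0.0488, adjusted p = 3.60e-10 in edgeR's quasi-likelihood test). Vtn, which encodes the matrix protein vitronectin, was at 339, 450, 462 and 419 CPM in the Bbs8+/+ libraries and at 152, 179, 165 and 164 CPM in the Bbs8-/- libraries, again with no overlap (log2 fold change -1.34, SE 0.0996, adjusted p = 2.66e-13).

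Of all tested genes 12.3% passed the threshold. Upstream and beside the members, none of the tested classical, lectin, alternative, terminal, membrane-bound and receptor genes of the list did. Many had too few counts to be tested. Those tested were 5 of 8 classical, 1 of 9 lectin, 1 of 2 alternative, 1 of 7 terminal, 6 of 10 membrane-bound and 3 of 7 receptor genes. The C1q chains, which recognise the target, were at 13.7 ± 1.88 against 13.9 ± 4.92 CPM for C1qa, 13.0 ± 3.40 against 10.4 ± 3.50 CPM for C1qb and 9.58 ± 3.80 against 14.7 ± 3.35 CPM for C1qc in Bbs8+/+ and Bbs8-/- libraries (SD, n = 4). Their 95% intervals on the log2 scale were -0.61 to 0.67, -1.02 to 0.37 and -0.10 to 1.33, so that none of them allowed a change of the size seen in C4b. Cr1l, which encodes a membrane regulator of the C3-cleaving enzymes, was at 14.3 ± 3.19 against 21.3 ± 7.38 CPM (log2 fold change 0.56, 95% interval -0.02 to 1.15, adjusted p = 0.240). Of the 7 genes of the terminal complex, Hc, C7, C8b and C9 had 0 counts in all libraries and only C8g was tested. The paralogs C1s2 and Cd55b had 0 counts as well, and Cd59b had 1 count in all libraries together.

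**Figure D2:**
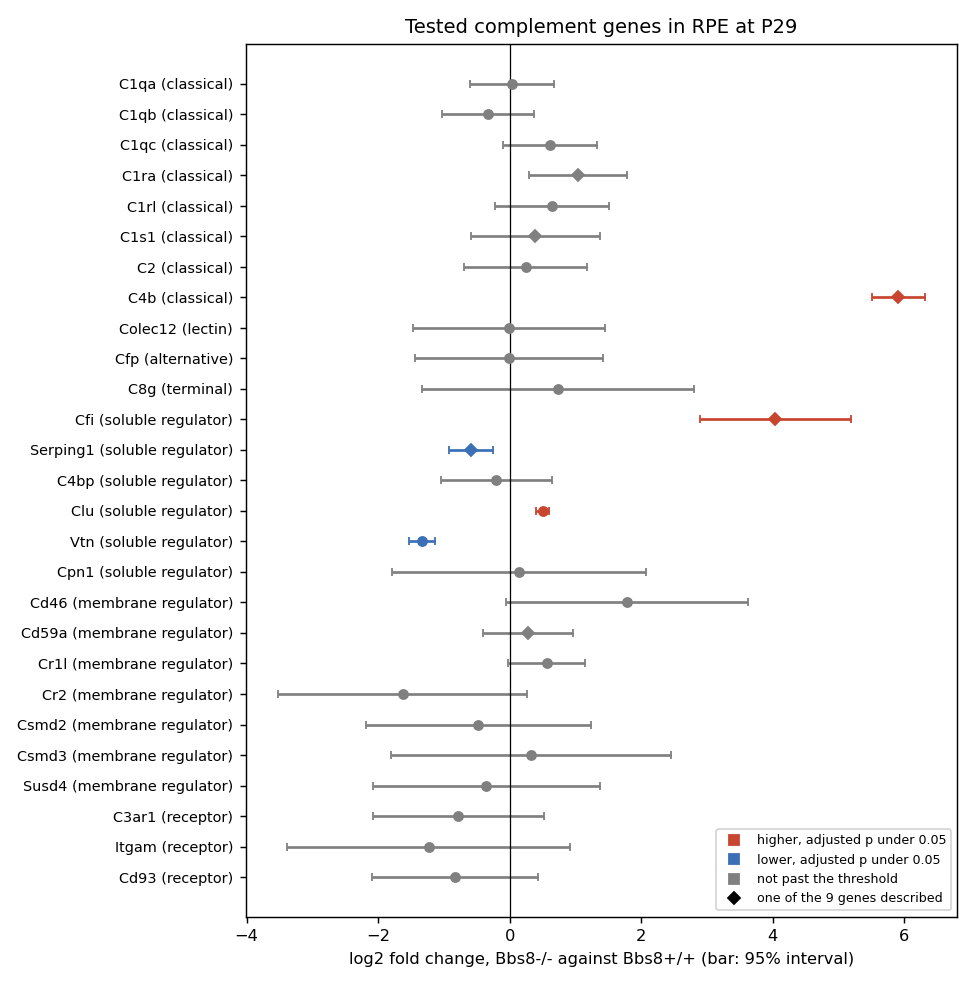
Log2 fold change of Bbs8-/- against Bbs8+/+ RPE with its 95% interval for tested complement genes, grouped by role; diamonds mark the members, red and blue mark genes past an adjusted p of 0.05. C4b (5.91) and Cfi (4.04) lie far to the right of all others, and genes that did not pass the threshold are grey.

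The genes whose profile over the 8 libraries lay nearest to that of C4b, among tested genes averaging 10 CPM or more, were Serpina3n, Sulf2 and A2m. Nearness was the root mean square difference of log2 CPM after centring each gene on its own mean, and it was 0.325 for Serpina3n, 0.651 for Sulf2 and 0.874 for A2m. Serpina3n encodes a secreted serine protease inhibitor, and it was at 5.20 to 8.59 CPM in the Bbs8+/+ libraries and at 397 to 454 CPM in the Bbs8-/- libraries (log2 fold change 5.90, SE 0.143, adjusted p = 5.55e-28 in edgeR's quasi-likelihood test). Its fold change was close to the 5.91 of C4b. Sulf2 encodes an extracellular enzyme that removes sulphate from heparan sulphate, and it was at 0.677 to 5.22 CPM against 75.5 to 92.4 CPM (log2 fold change 4.60, SE 0.274, adjusted p = 4.27e-16). A2m was at 91.4 to 134 CPM against 1181 to 1348 CPM (log2 fold change 3.52, SE 0.0955, adjusted p = 9.88e-27). These genes were picked for their likeness to C4b over the same libraries, so that their rise and the separation of the genotypes follow from the choice and are given as a description.

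**Figure D3:**
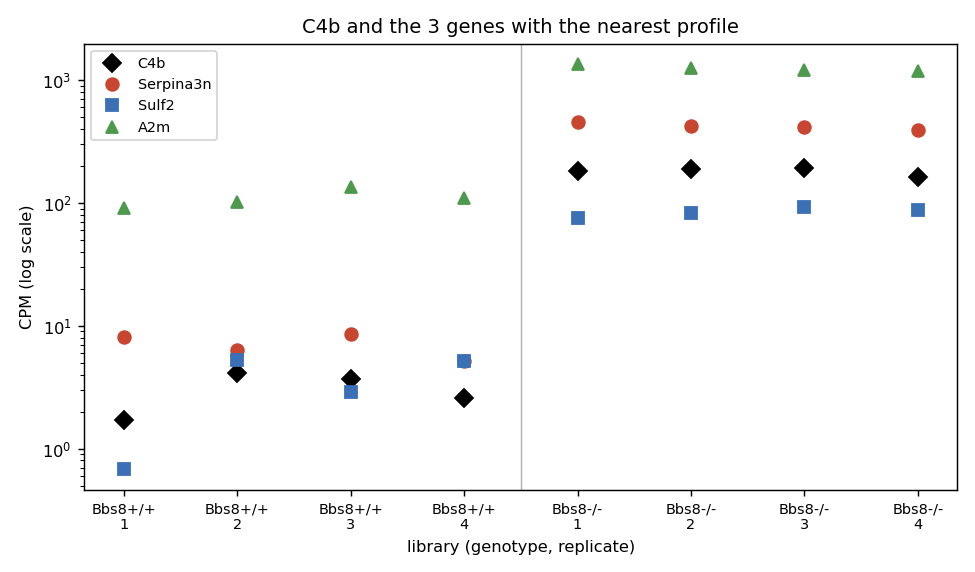
CPM on a log axis of C4b and of the 3 genes with the nearest profile, Serpina3n, Sulf2 and A2m, in each Bbs8+/+ and Bbs8-/- library. In each gene all 4 Bbs8-/- libraries lie above all 4 Bbs8+/+ libraries, by 60.0-fold in C4b and by 11.5-fold in A2m.

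Serpina3n and A2m are also on a list of 12 genes known to rise in reactive glia, and that list was higher along with C4b and Cfi. Its summed level was 219 to 349 CPM in the Bbs8+/+ libraries and 2144 to 2347 CPM in the Bbs8-/- libraries, and 8 of its 11 tested genes rose and none fell. Edn2 and Gfap were tested only because of their Bbs8-/- level, which fixed that they would differ, so the count is given as a description. The receptor gene Osmr (53.2 to 226 CPM on average, log2 fold change 2.09), its feedback inhibitor Socs3 (1.32) and the C/EBP factor gene Cebpd (1.44) were among them. The endothelin gene Edn2 had 0 counts in every Bbs8+/+ library and rose in the Bbs8-/- libraries, to a sum of 170 counts. Gfap, the defining filament of reactive glia, was low but higher (1.07 against 5.77 CPM, log2 fold change 2.41, adjusted p = 0.0417), and Lcn2, Bcl3 and Cp did not pass the threshold. The Müller glia list was higher by less, at 2788 to 3127 CPM against 3617 to 3825 CPM. In it 9 of 11 genes had a higher mean in Bbs8-/- libraries, and 3 rose past the threshold while none fell past it. Without Glul, its highest gene, the sums overlapped (1699 to 1930 against 1885 to 2068 CPM). The part of glial RNA in the levels of C4b, Cfi and C1ra was not tested.

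Microglia and macrophages are another known source of complement RNA, and the genotypes overlapped in the summed level of their 15 markers. Its sum was 401 to 523 CPM in Bbs8+/+ and 353 to 408 CPM in Bbs8-/- libraries (exact permutation p = 0.0857, adjusted p = 0.101), of which Csf1r, a receptor gene of the lineage, gave 318 and 263 CPM on average. Without Csf1r the sums were 123 to 136 and 115 to 134 CPM, and 8 of the 15 markers had a higher mean in Bbs8-/- libraries. Of 14 tested markers none rose and 2 fell, Mrc1 (11.3 against 4.61 CPM, adjusted p = 0.0333) and Cd74 (26.9 against 13.5 CPM, adjusted p = 0.0134). Tmem119 and Cx3cr1, defining microglial markers, were at 14.0 against 13.4 CPM and 11.8 against 13.2 CPM. Neutrophil and T cell markers summed to at most 2.80 CPM in any library, with Ly6g, Elane, Mpo and Cd8a at 0. Fibroblast markers, of which Col1a1 and Col3a1 fell and Dcn was at 408 against 407 CPM, summed to 1125 to 1482 CPM and 1052 to 1236 CPM. Endothelial and pericyte markers, at 105 to 130 and 111 to 142 CPM, had no gene past the threshold.

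Other lists separated the genotypes in the same direction as Serping1 and Vtn or in the same direction as C4b. The lens list was lower, at 3519 to 3711 CPM against 481 to 526 CPM. The photoreceptor list was lower as given above, with 12 of 17 genes lower and 4 higher past the threshold. The erythrocyte list was lower, at 5156 to 5720 CPM against 1985 to 2217 CPM. Ocular surface keratins and related genes were higher, at 13.1 to 14.6 CPM against 85.6 to 106 CPM, with Krt12, the corneal keratin, at 0 counts. Pax6, which is not a keratin, was the highest gene of this list and gave 10.2 and 21.4 CPM on average. Of its 5 genes that rose, 3 needed their Bbs8-/- libraries to be tested, so this count is a description. The summed RPE list was higher, at 36727 to 37752 CPM against 45545 to 48983 CPM, but this rested on Ttr, a transport protein gene, which rose from 20935 to 31742 CPM on average (log2 fold change 0.60). Without Ttr the other 12 RPE markers summed to 15872 to 16744 CPM in Bbs8+/+ and 15452 to 15899 CPM in Bbs8-/- libraries, which overlapped. Of the 13 RPE markers 6 rose and 2 fell, the latter being the visual cycle enzyme genes Rpe65 (log2 fold change -0.24, adjusted p = 0.000466) and Rdh5 (-0.26, adjusted p = 0.000893), while Rgr, an opsin gene, was at 4716 against 4686 CPM. The melanocyte list was at 261 to 314 and 291 to 352 CPM, and the ciliary body and iris list at 254 to 321 and 203 to 253 CPM. Without Car2, its highest gene, the ciliary body and iris sums overlapped (194 to 235 against 147 to 205 CPM). In exact two-sided permutation tests the lists whose genotypes did not overlap had p = 0.0286, or 0.0464 after Benjamini-Hochberg adjustment over the 13 lists. The lists were chosen with earlier results of these data known, so the p-values of all lists are given as a description. The part of these cell types in the lower Serping1 and Vtn levels was not tested.

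**Figure D4:**
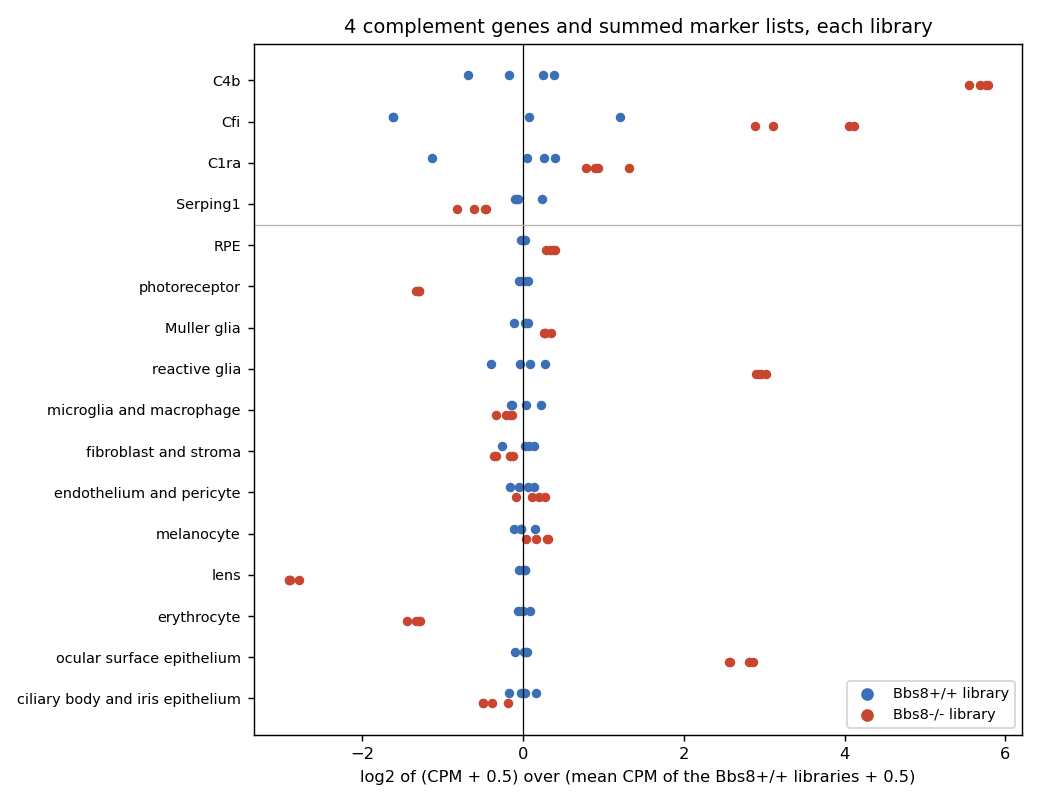
Level of C4b, Cfi, C1ra and Serping1 and the summed level of 12 marker lists in each library, as log2 of (CPM + 0.5) over the Bbs8+/+ mean. Reactive glia and ocular surface genes lie above the Bbs8+/+ libraries along with C4b and Cfi, lens, photoreceptor and erythrocyte genes lie below, and microglia and macrophage genes stay near 0.

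The genes around the members were compared because C4b, Cfb and C2 lie together in the class III region and C1ra, C1rl and C1s1 lie together on chromosome 6. Within 100 kb of the 9 genes 67 other genes were listed and 34 were tested, of which 4 rose and 4 fell (23.5%, against 12.3% of all tested genes). Around C4b, 1 of 7 tested genes was called, the transcription factor gene Atf6b, and it fell (log2 fold change -0.62, adjusted p = 0.0188 in edgeR's quasi-likelihood test). Stk19, which lies between C4b and Cfb, was at 30.4 against 30.6 CPM (log2 fold change 0.01), and C2, the C1s substrate gene beside Cfb, was at 6.18 against 7.38 CPM (log2 fold change 0.24, adjusted p = 0.823). Zbtb12 near Cfb fell (-1.51, adjusted p = 0.0225).

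Around Cfi, 3 of 7 tested genes rose and none fell. They were the peropsin gene Rrh (log2 fold change 0.56, adjusted p = 0.0268), the phospholipase gene Pla2g12a (0.55, adjusted p = 0.0374) and the caspase gene Casp6 (1.88, adjusted p = 0.00150), all with smaller fold changes than Cfi. Rrh, also one of the RPE markers, overlapped between the genotypes. It was at 62.6 CPM in Bbs8+/+ library 1, at 161 to 209 CPM in the other Bbs8+/+ libraries and at 199 to 238 CPM in Bbs8-/- libraries. Med19 (-0.47, adjusted p = 0.0126) and Zdhhc5 (-0.48, adjusted p = 0.0406) fell near Serping1, and Pex5 (1.48, adjusted p = 0.0197) rose near C1ra. C1rl, which lies 1.8 kb from C1ra and encodes a C1r-like protease, was at 5.85 against 9.16 CPM (log2 fold change 0.64, adjusted p = 0.396).

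**Figure D5:**
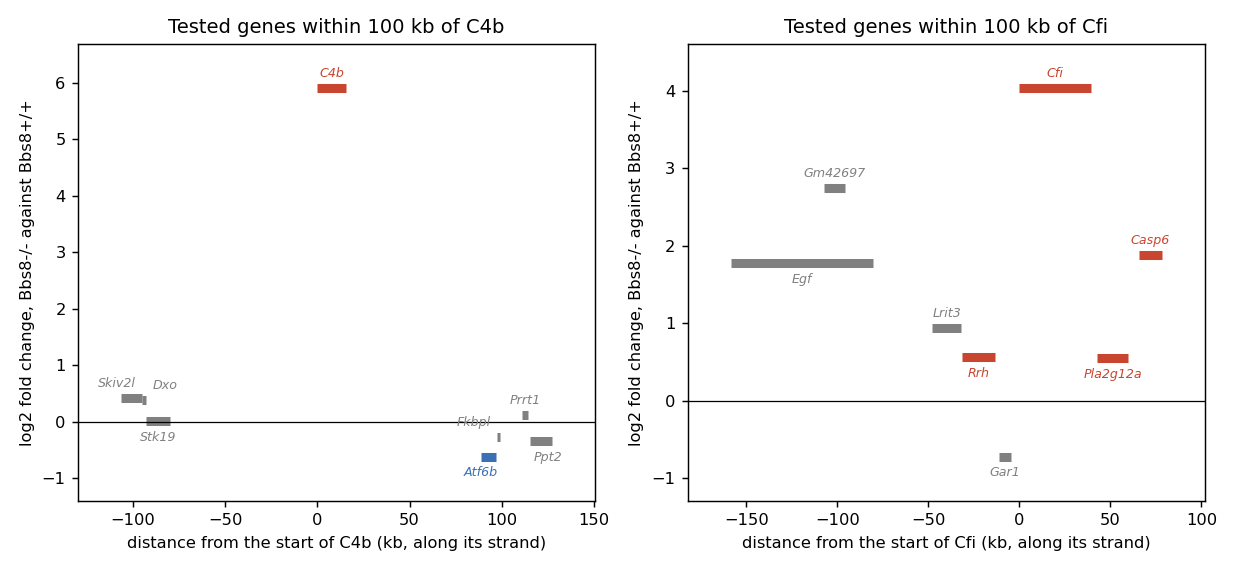
Log2 fold change of the tested genes within 100 kb of C4b (left) and Cfi (right), each drawn as a bar over its extent, against the distance in kb from the start of C4b or Cfi along its strand; red rose, blue fell and grey did not pass the threshold. C4b stands alone at 5.91 above neighbours between -0.62 and 0.41, while 3 neighbours of Cfi rose by less than Cfi.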

How the data were processed

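QuantSeq libraries were made from 30 ng of RPE RNA each and read from 1 end over 100 bp. Trimming (BBDuk), alignment to mm10 with Ensembl gene models (STAR) and counting of unique alignments (htseq-count) were done by the authors, and the strand setting of the counting is not given in the sources used here. The deposited values are raw counts per Ensembl gene identifier for each of the 8 libraries, without normalization, and the summary lines on reads assigned to no gene were left out of library sizes. Per library, 32.8% to 34.5% of reads did not map uniquely and 0.244% to 0.296% were ambiguous.

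Groups were taken from the labels alone. Symbols and coordinates came from the GENCODE annotation of GRCm38 in a later release, in which 30934 of the 31053 identifiers had a name. Genes reaching 1 CPM in 4 or more libraries were fitted with TMM scaling and edgeR's quasi-likelihood test (R 4.3.3, edgeR 4.0.16, limma 3.58.1), two-sided, adjusted by Benjamini-Hochberg over all tested genes with a threshold of 0.05, and SEs were derived from the F statistic. The code was tested on simulated data. The study's filter on multi-mapping reads was not repeated. Single levels were compared with exact permutation tests, and p-values measure only the spread between these libraries, which may in part be technical.

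The 9 genes, the complement list and the marker lists were chosen with earlier results of these data known. Genes named were Ttc8, the members, their paralogs, other complement genes past the threshold or with a mean of at least 10 CPM, the 3 nearest profiles of C4b, which had both the highest mean and the largest change, the 2 highest genes of each marker list, and called genes within 100 kb of a member. Further genes were named after their values were seen, among them the other marker genes given by name, Stk19, C2, C1rl, C8g and the genes at 0 counts. Alternatives were DESeq2 1.42.0, library size scaling, TMM without photoreceptor, lens and erythrocyte genes, the likelihood ratio test, other filters, a replicate block, each library left out in turn and paralog counts added together. Promoters and their build came from RefSeq. The coding stretches were read from GENCODE transcript sequences and placed on GRCm38 by their exons. Results for 1 gene that the naming rule covers are not reported here.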

Additional observations from a re-analysis of the deposited data

Results flagged for a closer look

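Among 17 genes, Ttc8 and the complement genes named, each checked in both genotypes (34 groups of 4 libraries), 6 groups held a library whose gap to its nearest neighbour took up most of the range of the group. For continuous values chance flags about 1 in 20 groups. That rate does not apply to groups with few counts, such as those of C3 and Cd55. In Bbs8+/+ libraries, C3 was at 1.02 CPM (3 counts) in library 1 and at 0 in the others, Cd55 was at 3.36 CPM (9 counts) in library 2 against 0.339 to 0.409 CPM, and C1s1 was at 8.95 CPM (24 counts) in library 2 against 4.06 to 4.83 CPM. Serping1 was at 75.2 CPM in Bbs8+/+ library 3 against 59.5 to 61.2 CPM, and its call rests on this library. In Bbs8-/- libraries, C1qc was lower in library 2, at 9.67 CPM against 15.7 to 16.8 CPM, and Clu was higher in library 3, at 6787 CPM against 6436 to 6460 CPM.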

How the results depend on the processing

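C4b and Cfi stayed higher and past the threshold under all 15 alternatives run for each, with log2 fold changes of 5.70 to 6.10 and 3.64 to 5.44. The number of members called higher was 2 or 3, the third being C1ra, and the number called lower was 1 except without Bbs8+/+ replicate 3, where it was 0 (range 0 to 1 over libraries left out). In that fit the log2 fold change of Serping1 was -0.51 (unadjusted p = 0.00854, adjusted p = 0.0691), and its adjusted p ranged from 0.00695 to 0.0691 over its alternatives. The log2 fold change of C1ra was 0.78 to 1.21 with adjusted p from 0.0363 to 0.217. C1s1 turned to -0.11 without Bbs8-/- replicate 2, and Cd59a to -0.00467 without Bbs8+/+ replicate 2, with leave-one-out values up to 0.71 and 0.60. Among the other complement genes 1 rose, or 2 without Bbs8+/+ replicate 4, where Cd46, a membrane regulator named after its values were seen, reached a log2 fold change of 3.89 (adjusted p = 0.0274, against 1.79 and 0.231 with all libraries). Called genes beside the members were 8 of 34 within 100 kb, 4 of 20 within 50 kb and 11 of 73 within 250 kb. Counts over all genes ranged from 553 to 1008 higher and from 654 to 927 lower. Library size scaling moved the log2 ratios of the RPE (0.44), photoreceptor (-1.22), Müller glia (0.38), lens (-2.79) and erythrocyte (-1.25) lists, all in the same direction as before. In an alternative chosen after seeing the data, each list was summed without its highest gene, which turned the RPE list to -0.0619 and moved the photoreceptor (-1.17), Müller glia (0.12), reactive glia (2.47), microglia and macrophage (-0.06), lens (-2.77) and ocular surface (4.24) lists without a change of direction.

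Same-numbered libraries did not deviate together (r = -0.0574 to 0.00498 over 8428 genes), so the numbers were not taken as pairs. With the replicate block 650 genes rose and 827 fell, and 2 members rose and 1 fell. With 3 counts as the floor, C3, Cfb and Cd55 had too few counts for a test, and differences in C1s1 and Cd59a within their intervals could not be seen.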
